A study of Mus musculus with 18 samples.

Results

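*Nobox*, *Figla*, *Sohlh1*, *Sohlh2*, *Lhx8* and *Taf4b*, transcription factor genes of the oocyte that act during follicle formation, were described in RNA-seq libraries of mouse oocytes grown *in vivo* or *in vitro*. The members were chosen by gene symbol, with no measured value in the rule, and are 6 of the 53715 genes in the read count table. All 6 also have TPM values (a level per transcript, corrected for gene length and depth), which were deposited for 28252 genes. The series holds 18 libraries, 3 in each of 6 groups.

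All libraries come from oocytes of C57Bl/6j x CBA/J mice, with no genetic change in the labels. Oocytes of primordial follicles (a resting oocyte with flat pregranulosa cells) and of primary follicles (1 layer of cuboidal granulosa cells) were cut from ovary sections by laser capture microdissection (LCM). Their *in vivo* groups come from ovaries of mice at day 14 that were not cultured. For the *in vitro* groups, ovaries were taken at day 7 and kept in culture for 7 days, in medium with serum, insulin, transferrin, selenium, antibiotics and recombinant FSH. Mature oocytes arrested at metaphase of the second meiotic division (MII oocytes) of the *in vivo* group were ovulated by adult mice after gonadotrophin injection. Those of the *in vitro* group came from follicles of ovaries cultured for 7 days that were then grown singly in alginate gel for 12 more days and ovulated with hCG. LCM oocytes of each stage were pooled during RNA extraction, and the labels do not say whether the replicates are separate animals, so p-values measure the spread between these libraries. LCM and MII libraries were made from fixed and fresh material with different extraction, amplification and library kits, so stage and method cannot be told apart between them, and no test compared them.

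These genes form a connected set of oocyte regulators. FIGLA, SOHLH1 and SOHLH2 are basic helix-loop-helix proteins, which bind E-box sequences as dimers, and FIGLA is known for driving the zona pellucida genes *Zp1*, *Zp2* and *Zp3*. NOBOX and LHX8 are homeodomain proteins, and mice that lack either of them lose oocytes soon after birth, when primordial follicles should persist. TAF4B is a paralog of TAF4, a subunit of the general transcription factor TFIID that sits at promoters with the TATA-binding protein.

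On the GRCm38 (mm10) annotation of GENCODE release 21, *Nobox* (ENSMUSG00000029736) lies at chr6:43303674-43309554 on the minus strand and *Figla* (ENSMUSG00000030001) at chr6:86016171-86020996 on the plus strand. *Sohlh1* (ENSMUSG00000059625) is at chr2:25842995-25847248 on the minus strand. *Sohlh2* (ENSMUSG00000027794, chr3:55182028-55209957, plus strand) and *Lhx8* (ENSMUSG00000096225, chr3:154306294-154330659, minus strand) share chromosome 3. None of these genes overlaps another annotated gene.

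Because several of these proteins bind E-boxes, the 250 bases before the RefSeq start (GRCm38.p6) were searched for the E-box CANNTG, which reads the same on both strands. Promoters of *Nobox* (chr6:43309555-43309804, minus strand), *Figla* (chr6:86016941-86017190, plus strand) and *Sohlh1* (chr2:25847249-25847498, minus strand) are shown 5′ to 3′ because these genes had the highest correlations with each other across libraries (given further on). Capitals mark each E-box.
Nobox: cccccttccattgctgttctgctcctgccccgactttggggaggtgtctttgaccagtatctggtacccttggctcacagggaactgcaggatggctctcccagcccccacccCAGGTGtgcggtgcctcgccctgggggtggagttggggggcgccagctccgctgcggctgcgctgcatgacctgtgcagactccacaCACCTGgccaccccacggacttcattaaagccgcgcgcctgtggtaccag
Figla: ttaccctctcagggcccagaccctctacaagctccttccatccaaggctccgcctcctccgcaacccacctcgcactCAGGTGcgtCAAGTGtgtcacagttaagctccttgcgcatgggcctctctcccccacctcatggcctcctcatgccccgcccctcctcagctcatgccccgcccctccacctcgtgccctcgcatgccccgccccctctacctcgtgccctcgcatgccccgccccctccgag
Sohlh1: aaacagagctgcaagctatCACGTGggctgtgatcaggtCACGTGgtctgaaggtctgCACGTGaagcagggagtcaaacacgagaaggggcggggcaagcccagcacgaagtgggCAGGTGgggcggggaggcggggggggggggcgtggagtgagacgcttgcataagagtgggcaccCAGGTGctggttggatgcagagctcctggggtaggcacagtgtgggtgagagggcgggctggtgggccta

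*Sohlh1* held 5 E-boxes, of which 3 read CACGTG and 2 read CAGGTG. *Nobox* held 2, CAGGTG and its reverse complement CACCTG, and *Figla* held 2, CAGGTG and CAAGTG. Among 32851 RefSeq promoters of the same length, 66.2% held at least 1 E-box, 31.8% at least 2 and 1.15% at least 5. CAGGTG, on either strand, was in 17.2% of all promoters and CACGTG in 6.02%. *Sohlh2* held 1 E-box (CAGATG) and *Lhx8* none in this window. The homeodomain motifs TAATTG (7.17% of all promoters) and TAATTA (4.84%), searched on both strands, were in none of these 5 promoters. These are letter matches and were not tested for binding. RefSeq and GENCODE starts differ for some of the genes. The *Figla* window lies wholly within the GENCODE gene given above, and the *Lhx8* and *Sohlh2* windows run partly into theirs.

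Reads on genes numbered 15149564 to 29205503 per LCM library and 7334817 to 9978830 per MII library. A gene was taken as detected above a floor of 3 reads in a library, which equals 0.103 to 0.198 CPM for LCM and 0.301 to 0.409 CPM for MII libraries (CPM is the read count as a share of the library total, on a common scale) and covers counting error only. Between 4842 and 11710 genes were detected per LCM library and 13238 to 15488 per MII library. Across genes, Spearman's rho between libraries of 1 LCM group was 0.48 to 0.78, against 0.86 to 0.93 within the MII groups. All LCM libraries contained 7 to 9 of 9 oocyte markers above the floor, summing to 206 to 1337 CPM. They also held 3 to 9 of 10 granulosa markers (79.7 to 3106 CPM) and 4 to 8 of 8 stroma and theca markers (959 to 27337 CPM), and the stroma sum exceeded the oocyte sum in 11 of 12 LCM libraries. *Fshr* and *Ptprc* were not detected in any LCM library. In MII libraries all 9 oocyte markers were detected (7872 to 13616 CPM) beside granulosa sums of 48.3 to 122 CPM and stroma sums of 0.337 to 13.6 CPM. Most of these granulosa sums was *Cyp19a1* (334 to 1039 reads), while *Foxl2*, *Amhr2* and *Fst* had no read in any MII library. The part of other cells in any level below was not tested, and fewer oocytes and less RNA per oocyte cannot be told apart in pooled material.

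Detection of the transcription factors differed by gene and method. Of the 72 pairs of gene and LCM library, 60 were above the floor. *Nobox* was detected in all 12 LCM and all 6 MII libraries. *Lhx8* and *Figla* were each detected in 11 LCM libraries, and *Lhx8* in 6 but *Figla* in only 3 MII libraries. *Sohlh1* was detected in 9 LCM libraries and in no MII library. *Sohlh2* (9 LCM libraries) and *Taf4b* (8 LCM libraries) were both above the floor in all 6 MII libraries.

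**Figure D1:**
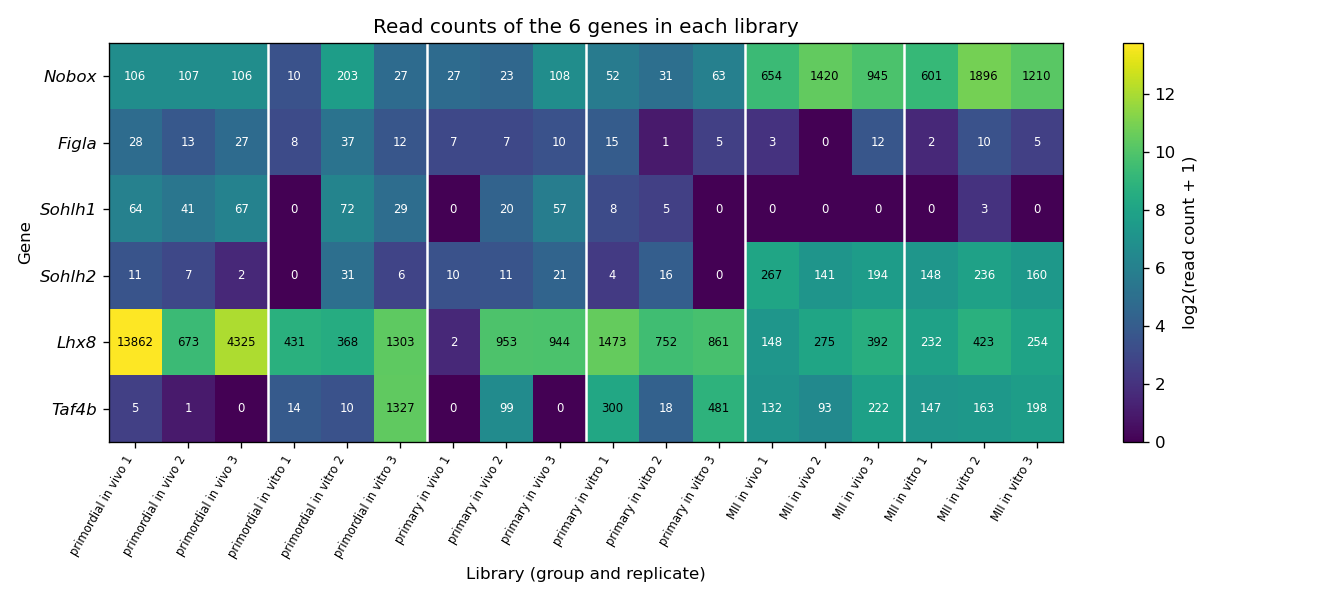
Read counts of the transcription factor genes (rows) in each of the 18 libraries (columns, named by group and replicate); each cell prints the read count, colour is log2(read count + 1), and white lines part the groups. *Lhx8* holds the most reads of any of them in 10 of the 12 LCM libraries, *Nobox* in all 6 MII libraries, and *Sohlh1* reaches at most 3 reads in MII oocytes.

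By TPM, *Lhx8* was the highest of the 6 genes in 11 of the 12 LCM libraries, and *Nobox* in the remaining library (primary *in vivo* replicate 1) and in all 6 MII libraries. In both MII groups the order of mean TPM was *Nobox*, *Lhx8*, *Sohlh2*, *Taf4b*, *Figla*, *Sohlh1*. The order was *Lhx8*, *Nobox*, *Sohlh1*, *Figla*, *Sohlh2*, *Taf4b* in both LCM groups grown *in vivo*. Both LCM groups grown *in vitro* had *Taf4b* in the second place of the means, after *Lhx8* and before *Nobox*. In the primordial *in vitro* group this place came from replicate 3 alone (40.0 TPM, against 0.576 and 0.228 in replicates 1 and 2), and by medians *Taf4b* (0.576) lay below *Sohlh1* (3.49), *Figla* (2.23) and *Nobox* (2.08).

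**Figure D2:**
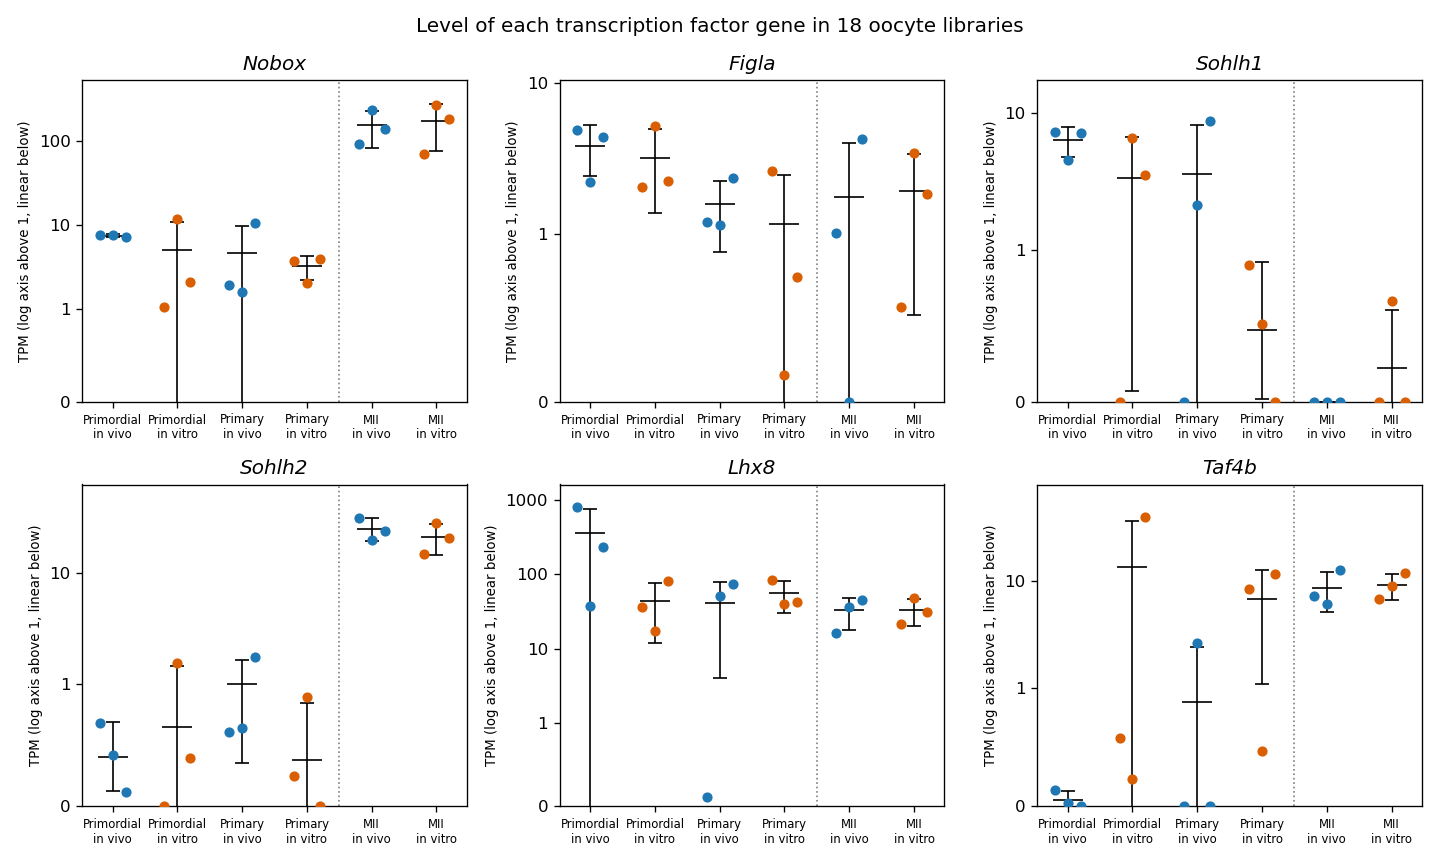
Level of each gene in TPM (vertical axis, logarithmic above 1 and linear below) in the 6 groups; points are libraries (blue *in vivo*, orange *in vitro*), horizontal bars are means, and error bars are SD over 3 libraries and are drawn down to 0 where they reach below it. The dotted line parts LCM from MII libraries, which were made with different kits and were not tested against each other. *Nobox* and *Sohlh2* are higher in every MII library than in every LCM library, and *Sohlh1* is near or at 0 in MII oocytes. The share of all genes that separate MII from LCM libraries was not counted.

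*Nobox*, the oocyte homeobox gene, was the most evenly measured of the genes in oocytes of primordial follicles grown *in vivo*. Its level there was 7.66, 7.54 and 7.15 TPM in replicates 1 to 3 (mean 7.45 ± 0.271, SD, n = 3), from 106, 107 and 106 reads. In the primordial *in vitro* group it was 1.05, 11.8 and 2.08 TPM (mean 4.99 ± 5.96), so 1 library stood above and the others below the whole *in vivo* group. Primary follicle oocytes had 1.93, 1.57 and 10.5 TPM *in vivo* (mean 4.66 ± 5.05) and 3.74, 2.04 and 3.89 TPM *in vitro* (mean 3.22 ± 1.03). The LCM groups overlapped in every pair of neighbours in the order of means, primordial *in vivo*, primordial *in vitro*, primary *in vivo*, primary *in vitro*.

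MII oocytes held 91.5, 237 and 139 TPM of *Nobox* *in vivo* (mean 156 ± 74.0) and 70.7, 268 and 184 TPM *in vitro* (mean 174 ± 98.8). The lowest MII library was thus above the highest LCM library (11.8 TPM), across the change of kit. How many of all genes were separate between MII and LCM libraries was not counted, so this is not shown to be particular to *Nobox*. The MII groups overlapped, with an edgeR log2 fold change *in vitro* over *in vivo* of 0.15 (SE 0.41, 95% interval -0.73 to 1.04, edgeR quasi-likelihood adjusted p = 0.941). In LCM oocytes the edgeR log2 fold change was -0.56 (SE 3.13, adjusted p = 1.00) at the primordial and -0.75 (SE 3.13, adjusted p = 1.00) at the primary stage.

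*Lhx8*, the LIM homeobox gene needed for early oocyte differentiation, reached the highest level of the set and had the largest SD in TPM. Relative to the mean, *Taf4b* in the primordial *in vitro* group spread more widely (13.6 ± 22.9 TPM). Oocytes of primordial follicles grown *in vivo* had 796, 37.7 and 232 TPM (mean 355 ± 394), from 13862, 673 and 4325 reads. Those grown *in vitro* had 36.1, 17.1 and 79.9 TPM (mean 44.4 ± 32.2). The *in vivo* library with the lowest level fell within the *in vitro* range, and the other *in vivo* libraries lay above it.

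In primary follicle oocytes *Lhx8* was at 0.114, 51.5 and 72.8 TPM *in vivo* (mean 41.5 ± 37.4) and at 84.2, 39.3 and 42.3 TPM *in vitro* (mean 55.3 ± 25.1). The single library near 0, primary *in vivo* replicate 1, held 2 *Lhx8* reads and had the fewest genes detected of all libraries (4842). It also had the highest sum of endothelium and blood markers (1665 CPM). Nearly all of that sum was *Hba-a1* (42352 reads), while *Hbb-bs*, *Pecam1*, *Cdh5* and *Ptprc* had no read in this library. The part of other cells in its *Lhx8* level was not tested. MII oocytes had 16.4, 36.4 and 45.8 TPM *in vivo* (mean 32.9 ± 15.0) and 21.7, 47.4 and 30.8 TPM *in vitro* (mean 33.3 ± 13.1).

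Neighbouring groups overlapped throughout the *Lhx8* order of means, which ran from primordial *in vivo* through primary *in vitro*, primordial *in vitro*, primary *in vivo* and MII *in vitro* to MII *in vivo*. The edgeR log2 fold change of primary over primordial *in vivo* was -3.24 (SE 2.68, 95% interval -8.48 to 2.01, adjusted p = 0.666), and that of *in vitro* over *in vivo* at the primordial stage -2.97 (SE 2.64, 95% interval -8.16 to 2.21, adjusted p = 0.685). Both use the same primordial *in vivo* libraries. Over the alternatives tried, these values ran from -4.36 to -2.07 and from -3.66 to -1.81 and kept their sign. In MII oocytes the log2 fold change was 0.07 (SE 0.43, 95% interval -0.85 to 0.99, edgeR adjusted p = 0.977).

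*Figla*, the helix-loop-helix activator of zona pellucida genes, had few reads everywhere. Reads numbered 28, 13 and 27 in primordial *in vivo* and 8, 37 and 12 in primordial *in vitro* libraries, which are means of 3.82 ± 1.42 and 3.15 ± 1.77 TPM. Primary libraries held 7, 7 and 10 reads *in vivo* (1.56 ± 0.671 TPM) and 15, 1 and 5 *in vitro* (1.17 ± 1.27 TPM). MII libraries held 3, 0 and 12 reads *in vivo* and 2, 10 and 5 *in vitro*.

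All 3 primary *in vivo* libraries were below all 3 primordial *in vivo* libraries in *Figla* CPM, but only by 0.542 against 0.543 CPM in the nearest libraries, and the groups overlapped in TPM (1.15 to 2.34 against 2.20 to 4.87). Of all genes tested, 6.22% did not overlap in CPM between these *in vivo* groups. The groups *in vitro* overlapped. Primary oocytes had 0.40 times the mean CPM of primordial oocytes *in vivo* and 0.37 times *in vitro*. The edgeR log2 fold changes were -1.31 (SE 2.85, adjusted p = 0.959) *in vivo* and -1.85 (SE 2.88, adjusted p = 0.969) *in vitro*. Averaged over both ways of growth, *Figla* differed between the stages by -0.48 in log2(CPM + 1) with an exact permutation p of 0.025 (two-sided, 400 arrangements of the stage labels within each way of growth, smallest possible p 0.005). That was the lowest of the 12 exact tests run on the genes' averages over stage or culture, it is not adjusted for them, and the edgeR adjusted p for the same average was 0.985.

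*Sohlh1*, the germ-cell helix-loop-helix gene active before follicles grow, was detected in 5 of 6 primordial and 4 of 6 primary libraries. It had 7.22, 4.51 and 7.05 TPM in primordial *in vivo* libraries (mean 6.26 ± 1.52) and 0, 6.56 and 3.49 TPM in primordial *in vitro* libraries (mean 3.35 ± 3.28). Primary libraries had 0, 2.13 and 8.64 TPM *in vivo* (mean 3.59 ± 4.50) and 0.898, 0.513 and 0 TPM *in vitro* (mean 0.470 ± 0.451). Primary *in vitro* oocytes thus lay below every primordial *in vivo* library, and the other LCM groups spanned both. These 2 groups differ in both stage and culture and were not compared by a test, and the share of all genes separate between them was not counted.

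In MII oocytes *Sohlh1* had no read in 5 of 6 libraries and 3 reads in MII *in vitro* replicate 2. A count of 0 allows up to 0.409 CPM in the shallowest MII library. With so few reads the gene was not tested there. The largest *Sohlh1* differences were -3.06 (SE 3.18, edgeR adjusted p = 0.843) for primary over primordial *in vitro* and -3.00 (SE 3.17, edgeR adjusted p = 0.885) for *in vitro* over *in vivo* at the primary stage, on the log2 scale. Both use the 8, 5 and 0 reads of the primary *in vitro* group. At the primary stage the value was -1.32 without primary *in vivo* replicate 3, which held 77.4% of that group's *Sohlh1* CPM, and over all alternatives it ran from -3.62 to -1.13. Averaged over growth and over stage, exact permutation gave p = 0.095 and p = 0.09.

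*Sohlh2*, the partner of *Sohlh1*, was the lowest or next to lowest by mean TPM in the 4 LCM groups. Reads were 11, 7 and 2 in primordial *in vivo*, 0, 31 and 6 in primordial *in vitro*, 10, 11 and 21 in primary *in vivo* and 4, 16 and 0 in primary *in vitro* libraries. These are means of 0.404 ± 0.281, 0.645 ± 0.800, 0.994 ± 0.642 and 0.380 ± 0.463 TPM, and all 4 ranges overlapped. MII libraries had 31.8, 20.0 and 24.3 TPM *in vivo* (mean 25.3 ± 5.97) and 14.8, 28.3 and 20.8 TPM *in vitro* (mean 21.3 ± 6.78).

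The lowest MII library (14.8 TPM) was above the highest LCM library (1.74 TPM), again across the change of kit and with no count of all genes that do so. *Sohlh1* and *Sohlh2*, whose products can pair with each other, had 363 against 119 reads over all LCM and 3 against 1146 over all MII libraries. Read counts and CPM are not corrected for gene length. *Sohlh2* had the higher mean CPM in the primary *in vitro* group (0.292 against 0.185 for *Sohlh1*). By mean TPM, *Sohlh1* was the higher of the pair in every LCM group, with 0.470 against 0.380 TPM in the primary *in vitro* group. In MII oocytes the log2 fold change of *Sohlh2* was -0.26 (SE 0.44, 95% interval -1.22 to 0.69, edgeR adjusted p = 0.896).

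*Taf4b* (ENSMUSG00000054321) spans chr18:14783245-14900359 on the plus strand, and 1 other annotated gene on the same strand overlaps it without touching any of its exons.

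The TFIID subunit gene *Taf4b* was the only member with non-overlapping CPM between *in vivo* and *in vitro* growth at the primordial stage, where 6.52% of all genes tested did not overlap. Its nearest libraries were at 0.342 CPM (*in vitro* replicate 2, floor 0.103 CPM) and 0.210 CPM (*in vivo* replicate 1, floor 0.126 CPM). Primordial *in vivo* libraries held 5, 1 and 0 reads (mean 0.0563 ± 0.0749 TPM), and primordial *in vitro* libraries 14, 10 and 1327 reads (mean 13.6 ± 22.9 TPM). One library, primordial *in vitro* replicate 3, thus carried 98.0% of the group's CPM. That library also had the highest granulosa marker sum (3106 CPM) of the LCM libraries and a stroma sum of 8092 CPM; the part of these in its *Taf4b* level was not tested.

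At the primary stage *Taf4b* had 0, 99 and 0 reads *in vivo* (mean 0.878 ± 1.52 TPM) and 300, 18 and 481 reads *in vitro* (mean 6.84 ± 5.75 TPM), and the *in vivo* library with 99 reads fell within the *in vitro* range. *Taf4b* was therefore above the floor in all 6 LCM libraries grown *in vitro*, with at least 10 reads each, and in 2 of 6 grown *in vivo*. How many of all genes had such a split was not counted. Primary libraries had 8880 to 11710 genes detected *in vitro* against 4842 to 10283 *in vivo*. Primordial libraries had 5703 to 8147 *in vitro* against 6438 to 10240 *in vivo*. The MII groups overlapped, with 7.21, 6.06 and 12.7 TPM *in vivo* (mean 8.67 ± 3.57) and 6.76, 8.99 and 11.8 TPM *in vitro* (mean 9.18 ± 2.52).

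The edgeR log2 fold change of *Taf4b* *in vitro* over *in vivo* was 7.93 (SE 4.28, 95% interval -0.46 to 16.32, adjusted p = 0.442) at the primordial and 2.67 (SE 3.37, 95% interval -3.93 to 9.27, adjusted p = 0.930) at the primary stage. Without primordial *in vitro* replicate 3 the first of these was 2.95, and without primary *in vivo* replicate 2 the second was 10.61. Averaged over both stages it was 5.30 (SE 2.68, 95% interval 0.04 to 10.56), with an unadjusted p of 0.0483 and an edgeR adjusted p of 0.427, and exact permutation gave p = 0.055. Leaving out 1 library moved this average between 2.80 (without primordial *in vitro* replicate 3) and 9.27 (without primary *in vivo* replicate 2). DESeq2 called *Taf4b* at the primordial stage (log2 fold change 7.91, adjusted p = 0.0261) and for the average (5.25, adjusted p = 0.0496). Neither call remained without primordial *in vitro* replicate 3 (DESeq2 adjusted p = 0.543 and 0.386). For MII oocytes the log2 fold change was 0.13 (SE 0.47, 95% interval -0.88 to 1.15, edgeR adjusted p = 0.960).

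**Figure D3:**
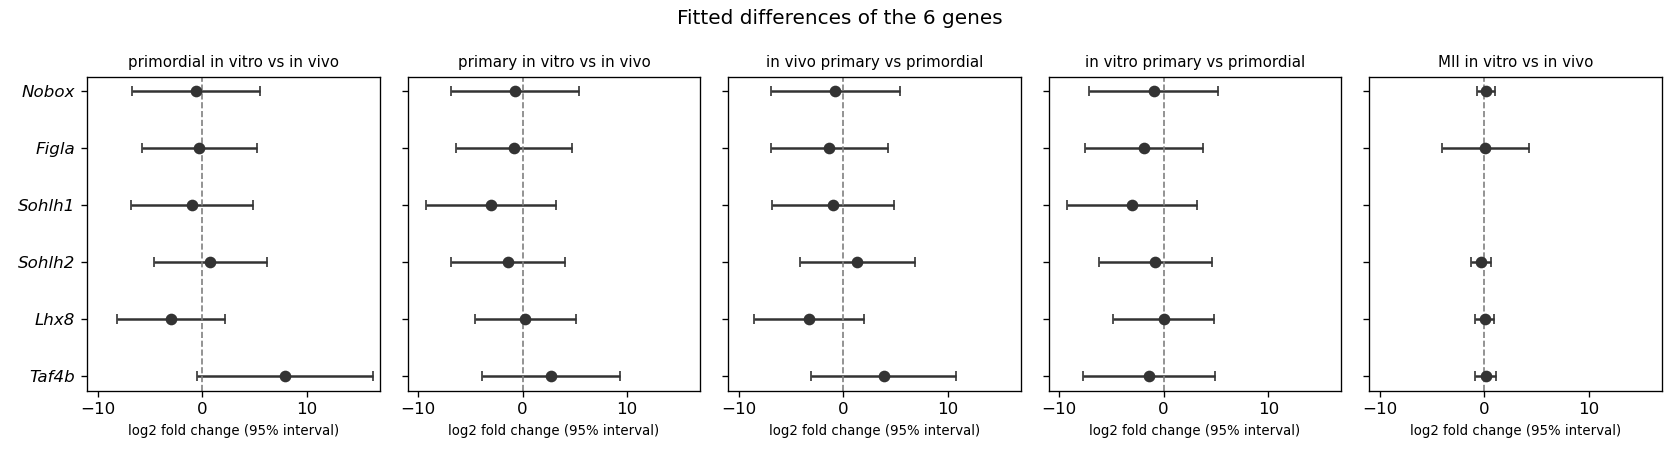
Fitted log2 fold changes (points) with 95% intervals (bars) from edgeR for each gene in 5 comparisons, all panels on the same axis; positive values are higher *in vitro*, or higher in primary than in primordial follicle oocytes. Every interval includes 0, intervals in LCM oocytes span several log2 units, and *Sohlh1* has no point in MII oocytes because it was not tested there.

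Across all comparisons, no member passed an adjusted p of 0.05 with a fold of at least 2 in edgeR. Of all genes tested, 0.0326% were called between *in vitro* and *in vivo* at the primordial stage, 0% at the primary stage and 0.35% in MII oocytes. Between primary and primordial oocytes 0.0522% were called *in vivo* and 0% *in vitro*. Averages over the stages and over growth gave 0% each, and the interaction of culture and stage gave 0.104%, with member adjusted p from 0.838 to 1.00. At an unadjusted p under 0.05, 1 member passed (*Taf4b*, for culture averaged over the stages), and between 1479 and 1894 of all genes passed in each comparison. DESeq2 called 1 member at the primordial stage (774 of 19181 genes) and 1 for the culture average (557 of 19181 genes), and limma-voom and limma on log2 TPM called none. The biological coefficient of variation was 2.02 in the LCM and 0.726 in the MII fit. The absence of a call does not show that levels were equal.

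Counting groups with no overlap in CPM, 1 member (*Taf4b*) was separate between *in vitro* and *in vivo* at the primordial stage, where 6.52% of all genes tested were. Between primary and primordial oocytes *in vivo* 1 member (*Figla*) was separate, against 6.22% of genes. No member was separate between *in vitro* and *in vivo* at the primary stage (10.7% of genes) or in MII oocytes (15.6%), or between stages *in vitro* (12.2%). With 3 libraries against 3 the smallest exact permutation p is 0.1.

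All 6 members had a negative fitted log2 fold change for primary over primordial *in vitro* (median -1.15, median of all genes 0.44), although that of *Lhx8* was only -0.01 and those of *Lhx8*, *Nobox*, *Sohlh2* and *Taf4b* turned positive under other settings. *In vivo*, 4 of 6 were negative (median -0.87, all genes 0). For *in vitro* over *in vivo*, 4 of 6 were negative at each LCM stage, with medians of -0.42 (all genes 0) and -0.79 (all genes 0.44). These counts share libraries between comparisons, and no member among them was called.

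Over the 12 LCM libraries, which differ in depth and in the RNA of other cells, the levels of *Nobox*, *Figla* and *Sohlh1* rose and fell together most among the members. Spearman's rho of CPM was 0.73 for *Nobox* with *Sohlh1*, 0.69 for *Figla* with *Sohlh1* and 0.55 for *Nobox* with *Figla*. These are the genes whose promoters are printed above. *Sohlh1* and *Sohlh2* had a rho of 0.47. *Taf4b* was negative with *Nobox* (-0.42), *Sohlh1* (-0.48), *Sohlh2* (-0.38) and *Figla* (-0.16) and had a rho of 0.16 with *Lhx8*.

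Among 8822 genes above the floor in at least 6 of these libraries, the genes most like each member were named by the highest rho. *Nobox* was nearest to *Rph3al* (0.90), *Dclk2* (0.89) and *Bsdc1* (0.87), and *Figla* to *Ak7* (0.92), *Ablim1* (0.86) and *Xrcc5* (0.85), the Ku80 subunit of DNA end joining. *Sohlh1* was nearest to the co-chaperone gene *Dnaja2* (0.88), the cohesin subunit gene *Stag1* (0.87) and *Scamp3* (0.87). *Sohlh2* was nearest to the kinase gene *Akt2* (0.84), *Rab10* (0.83) and *Arfgef3* (0.80). *Lhx8* had the kinetochore gene *Ndc80* (0.94), the inositol transporter gene *Slc5a3* (0.92) and *Mir7654* (0.90). *Taf4b* had *Aph1a* (0.96), a γ-secretase subunit gene, the splicing-related *Sugp1* (0.94) and *Tpm4* (0.93), a tropomyosin. These are the highest values of a search over all 8822 genes, and 4 of the 18 were also among the nearest by Pearson's r of log2(CPM + 1).

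Genes downstream of these factors were read from a list of 15, with *Gdf9*, *Bmp15*, *Pou5f1*, *Zar1*, *Mos*, *Rfpl4*, *Fgf8*, *H1f8*, *Oosp1*, *Zp1*, *Zp2*, *Zp3*, *Kit*, *Padi6* and *Nlrp5*. None was called by edgeR in any comparison. For *in vitro* over *in vivo* at the primordial stage 13 of 15 were positive (median log2 fold change 2.84, all genes 0). An unadjusted edgeR p under 0.05 was found for 3 of 15, against 1799 of 15317 genes tested. DESeq2 called *Zp1* and *Fgf8*, 2 of 15, against 774 of 19181 genes. Primordial *in vitro* replicate 2 held the most reads of the 6 primordial libraries for 14 of the 15 genes, all but *Kit*. Without it, a setting chosen after seeing the data, 7 of 15 were positive (median 0, all genes -0.61). *Fgf8* had no read in the primordial libraries that remained, so it had no direction there. Oocyte markers were positive for 7 of 9 (median 3.26) with and 6 of 9 (median 0.49) without primordial *in vitro* replicate 2. All of these markers but *Ddx4* (-1.31 with all libraries) and *Dazl* (0.86) are also in the list of 15, so the 2 counts are not independent. Granulosa markers were positive for 7 of 8 (median 1.18) with and 6 of 8 (median 1.46) without that library. The part of other cells in the list's levels was not tested. For primary over primordial *in vivo* 13 of 15 were positive (median 3.36, all genes 0). An unadjusted edgeR p under 0.05 was found for 2 of 15, against 1713 of 15317 genes tested. DESeq2 called *Fgf8*, 1 of 15, against 532 of 19181 genes. *Fgf8*, a fibroblast growth factor gene, had 0 reads in each primordial *in vivo* library, 0, 1334 and 0 in primordial *in vitro* and 1, 1 and 197 in primary *in vivo* libraries, so nearly all of these reads came from 1 library in each group. Both comparisons use the primordial *in vivo* libraries. In MII oocytes 7 of 15 were positive (median -0.13, all genes 0.04), and limma-voom called *Bmp15* (adjusted p = 0.0251), 1 of 15, against 463 of 17144 genes.

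By mean CPM over all 18 libraries *H1f8*, the oocyte linker histone gene, and *Gdf9*, an oocyte growth factor gene, led this list. *Gdf9* had 135, 101 and 15 reads in primordial *in vivo* and 32, 7061 and 5 in primordial *in vitro* libraries. It had 1576, 1103 and 1087 reads in primary *in vivo* and 2081, 1057 and 2206 in primary *in vitro* libraries. One primordial *in vitro* library, replicate 2, thus stood above all other LCM libraries for *Gdf9*, and the other primordial libraries below every primary library. *H1f8* had at most 125 reads in any LCM library and at least 96839 in each MII library.

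A list of 11 partners and cofactors (dimer partners *Tcf3*, *Tcf4* and *Tcf12*, LIM cofactors *Ldb1* and *Ssbp3*, and *Tbpl2*, *Tbp*, *Stat3*, *Sub1*, *Dynll1* and *Foxo3*) had no gene called by edgeR. Between 4 and 7 of the 11 were positive in each of the 5 comparisons of 2 groups, and 1 to 3 had an unadjusted p under 0.05 in all of these but *in vitro* over *in vivo* at the primary stage, where none did. Over all genes, 1479 to 1799 of 15317 had such a p in the LCM comparisons of 2 groups and 1743 of 17144 in MII oocytes. *Tcf4*, the closest to a call (MII oocytes, log2 fold change 2.48, edgeR adjusted p = 0.0687), had 32, 113 and 65 reads *in vivo* and 450, 428 and 371 *in vitro*, and both DESeq2 (adjusted p = 0.000371) and limma-voom (adjusted p = 0.0107) called it. Of all genes in MII oocytes, DESeq2 called 351 of 21583 and limma-voom 463 of 17144. *Tcf4* encodes a dimer partner of class II helix-loop-helix proteins, and it and *Tbp* are named here after their values were seen. *Tbp*, the TATA-binding protein gene, had 2759, 3808 and 513 reads in primordial *in vivo* and 0, 5 and 2 in primordial *in vitro* libraries, with an edgeR adjusted p of 0.359 and a DESeq2 adjusted p of 0.00217. At that stage DESeq2 called 774 of 19181 genes, and 6.52% of genes tested did not overlap in CPM. In primary libraries *Tbp* varied as widely within groups, with 0, 59 and 14813 reads *in vivo* and 4925, 9 and 2271 *in vitro*. By mean CPM over all 18 libraries, LCM and MII pooled, *Dynll1*, a dynein light chain gene, and *Foxo3*, which holds primordial oocytes at rest, led the list, although *Dynll1* was at only 11.4 and 7.16 CPM in MII oocytes *in vivo* and *in vitro*. *Foxo3* was at 872 ± 1040 and 1441 ± 809 CPM (SD, n = 3) in primordial oocytes *in vivo* and *in vitro*, and at 837 ± 502 and 817 ± 24.1 CPM in primary oocytes. *Dynll1* ranged from 57 to 83608 reads among LCM libraries.

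The 14 other TFIID subunit genes, *Taf4* among them, also had no edgeR call. At the primordial stage 3 of 14 were positive *in vitro* over *in vivo* (median -1.01, all genes 0), the opposite sign to *Taf4b*, and at the primary stage 6 of 14 (median -1.04, all genes 0.44). The smallest edgeR adjusted p was 0.0941, for *Taf9b* averaged over growth. *Taf1*, the largest TFIID subunit gene and the highest of the list by mean CPM over all 18 libraries, LCM and MII pooled, was at 914 ± 502 CPM in primordial *in vivo* and 598 ± 268 CPM in primordial *in vitro* oocytes, but at 25.4 ± 9.31 and 29.5 ± 22.0 CPM in MII oocytes *in vivo* and *in vitro*. *Taf3* followed, at 10.3 ± 15.6 and 1.09 ± 1.45 CPM in these groups and at 1015 ± 452 and 919 ± 357 CPM in MII oocytes *in vivo* and *in vitro*. *Taf4*, the paralog of *Taf4b*, is named after its values were seen. It had 16, 302 and 5 reads in primordial *in vivo* and 0, 15 and 6831 in primordial *in vitro* libraries, so that replicate 3 of the latter was the highest library of its group for both paralogs. DESeq2 called *Taf8* in 6 comparisons and *Taf9b* in 2, in each of which it called 227 to 774 of 19181 genes. Limma-voom called *Taf8* at the primary stage (adjusted p = 0.0274) and between stages *in vitro* (adjusted p = 0.000478). It called *Taf11* between stages *in vivo* (adjusted p = 0.0203), and *Taf11* (adjusted p = 0.0388) and *Taf9b* (adjusted p = 0.0434) for the stage average. In each of these comparisons limma-voom called 47 to 316 of 15317 genes. *Taf8* had reads in 1 of the 6 primordial libraries (1478, in primordial *in vivo* replicate 2) and *Taf9b* in 1 (14, in primordial *in vitro* replicate 2). In primary libraries *Taf8* had 1, 2 and 4 reads *in vivo* and 2345, 3552 and 1492 *in vitro*. *Taf9b* had 8793, 751 and 4 reads in primary *in vivo* and 880, 3 and 734 in primary *in vitro* libraries.

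*Ddx4*, a germ-cell helicase gene, was the only gene of all the lists called by edgeR. It had 373, 120 and 244 reads in MII *in vivo* and 2769, 3906 and 2661 in MII *in vitro* libraries (log2 fold change 3.55, edgeR adjusted p = 0.00206). The MII log2 fold changes of the 5 tested members lay between -0.26 and 0.15, with the widest 95% interval for *Figla* (0.12, SE 1.93, interval -4.02 to 4.26, edgeR adjusted p = 0.992).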

How the data were processed

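RNA-seq libraries of LCM and MII oocytes were analysed from the tables the authors deposited. The authors trimmed reads with trim_galore 0.4.1, used TopHat2 for mapping to mm10, and obtained counts with featureCounts. They deposited raw read counts per gene and TPM values. The study's methods name an Ensembl annotation, and strand and multimapping settings are not given in the sources used here. Groups and replicate numbers came from the sample titles, and ages from the study's methods. All 18 count columns were mapped, and 0 columns were left out.

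Counts were tested with edgeR 4.0.16 (quasi-likelihood, robust, TMM) in R 4.3.3 over genes with at least 10 reads in total, in one model of the 12 LCM and one of the 6 MII libraries. A call needed p under 0.05 after Benjamini-Hochberg adjustment over all genes tested and a fold of at least 2. All members were described, with the 3 genes most like each by Spearman's rho, and from each list the called genes or otherwise the 2 with the highest mean CPM. Members and lists were chosen with earlier results of these data known. The script was tested on simulated data. Alternatives were DESeq2 1.42.0, limma 3.58.1 (voom with quality weights, or log2 TPM with pseudocounts of 1 and 0.1), other normalizations and filters, no fold threshold, a fit of only the 2 groups compared, a replicate block and leaving out each library. GENCODE matched 53620 of 53715 count-table genes, and promoter sequences are RefSeq's. The exact permutation tests of log2(CPM + 1), two-sided with labels permuted within the other factor, were chosen after seeing the data.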

Additional observations from a re-analysis of the deposited data

How the results depend on the processing

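The count of members called stayed at 0 in 157 of 159 settings. DESeq2 called 1 member (*Taf4b*) for *in vitro* over *in vivo* at the primordial stage and 1 for culture averaged over the stages, and without primordial *in vitro* replicate 3, a setting chosen after seeing the data, it called 0. Over all genes the tools differed widely, and edgeR, DESeq2 and limma-voom called 5, 774 and 33 genes at the primordial stage, 0, 227 and 316 at the primary stage, and 60, 351 and 463 in MII oocytes. They called 8, 532 and 47 genes between stages *in vivo*, 0, 413 and 262 *in vitro*, 0, 557 and 58 for the culture average, 0, 625 and 48 for the stage average, and 16, 550 and 65 for the interaction. Limma on log2 TPM called 0 in LCM oocytes with either pseudocount, and 19 (pseudocount 1) or 23 (0.1) in MII oocytes. The cause was not tested.

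Of 770 alternative log2 fold changes of members, 43 had the other sign. With limma-voom these were *Sohlh2* at the primordial stage (-0.53), *Lhx8* (-0.0630) and *Taf4b* (-0.0650) in MII oocytes, *Taf4b* between stages *in vivo* (-0.23) and *Lhx8* (0.15) and *Taf4b* (0.87) between stages *in vitro*. With log2(TPM + 0.1) they were *Sohlh2* at the primordial stage (-0.0325), *Nobox* (0.0412), *Lhx8* (0.50) and *Taf4b* (0.89) between stages *in vitro* and *Lhx8* for the culture average (0.0530), and with log2(TPM + 1) *Lhx8* (0.48) and *Taf4b* (0.38) between stages *in vitro*. *Lhx8* turned with library size alone in MII oocytes (-0.0157), and between stages *in vitro* with library size alone (0.36), filterByExpr (0.0229) and a replicate block (0.22). Without the 2 libraries with the fewest genes detected, chosen after seeing the data, *Lhx8* at the primary stage was -0.36. The cause was not tested.

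Leaving out 1 library turned the sign in 25 of 318 fits. The ranges were -0.83 to 0.0018 for *Figla* and -0.90 to 1.37 for *Sohlh2* at the primordial stage, and -1.16 to 0.41 for *Nobox* and -0.33 to 0.90 for *Lhx8* at the primary stage. In MII oocytes they were -0.17 to 0.55 (*Nobox*), -0.45 to 1.62 (*Figla*), -0.44 to 0.0530 (*Sohlh2*), -0.21 to 0.33 (*Lhx8*) and -0.0860 to 0.43 (*Taf4b*). Between stages they were -4.04 to 5.75 for *Taf4b* *in vivo* (lowest without primary *in vivo* replicate 2), and *in vitro* -1.40 to 0.71 (*Nobox*), -2.79 to 0.86 (*Sohlh2*), -0.40 to 0.68 (*Lhx8*) and -2.05 to 3.62 (*Taf4b*, highest without primordial *in vitro* replicate 3). For the stage average they were -0.72 to 1.11 (*Sohlh2*) and -2.70 to 3.76 (*Taf4b*).

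Samples with the same replicate number did not deviate together (correlations -0.05 to 0.10 in LCM and -0.03 to 0.03 in MII oocytes), so the numbers are not taken as pairs, and with the replicate block 0 members were called. The order of mean TPM was the same as that of CPM for 3 of 6 places in the primary *in vivo* group, and 4 of 18 nearest genes were shared with Pearson's r. Reads without molecular identifiers and spreads in LCM oocytes limit all low counts.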
